A study of Mus musculus with 11 samples.

Results

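The Snail, Twist and Zeb proteins are transcription factors that drive epithelial-mesenchymal transition (EMT), the change by which epithelial cells lose their junctions and become migratory mesenchymal cells. Snai1 and Snai2 encode zinc finger repressors, Twist1 and Twist2 encode basic helix-loop-helix factors that act as dimers with E proteins, and Zeb1 and Zeb2 encode zinc finger homeobox repressors that recruit the co-repressor CtBP. All of them bind E-boxes, short DNA motifs of the form CANNTG, and TGF-beta signalling is a classical inducer of several of them. Prrx1 encodes a paired-related homeobox factor of limb, craniofacial and vascular mesenchyme. In the embryo these factors act in neural crest cells, which give rise to much of the smooth muscle of the aortic arch, and in the cushions of the heart.

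These 7 genes, taken by symbol, are described here among 48709 mouse genes in the count table, of which 14757 had enough counts to be tested. All 7 passed that filter. Bulk RNA-seq was done on whole aortic arches of mice at postnatal day 11: 5 wild-type littermates (Tgfbr2-+/+, WT 1 to 5) and 6 mice heterozygous for a G357W substitution in the type II TGF-beta receptor (Tgfbr2-G357W/+, Het 1 to 6). The heterozygotes model Loeys-Dietz syndrome, type II, an inherited aortic aneurysm disorder, and each library was taken as 1 animal because the series counts as many mice as libraries. No treatment, strain or sex is named for either group, and the labels give the cells as vascular smooth muscle and endothelium.

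Total counts were 13113467 to 19327935 per WT library and 13162449 to 18883711 per Het library. The floor set by 3 counts was 0.154 to 0.231 CPM (counts scaled to the library total and to TMM factors). The smooth muscle actin Acta2 (27064 ± 1104 CPM in WT, SD, n = 5) and the endothelial Pecam1 (295.7 ± 59.8 CPM in WT) were both abundant. Pecam1 made up most of the sum of 8 endothelial markers (mean 469.5 CPM in WT), and Cdh5 had only 6.19 ± 1.67 CPM. None of the 8 passed in edgeR (adjusted p under 0.05), beside 5.03 percent of all tested genes. Their median log2 fold change, Het against WT, was 0.22. Pecam1 and Cdh5 had opposite signs (-0.28 and 0.49, adjusted p = 0.317 and 0.284 in edgeR). Tgfbr2 itself was measured at 41.3 ± 4.29 CPM in WT against 39.0 ± 8.22 CPM in Het (SD, n = 6; log2 fold change -0.09 ± 0.13, adjusted p = 0.790 in edgeR), and these counts do not separate the alleles. All 5 WT libraries and Het 1 and 2 carried Xist, the RNA of the inactive X chromosome, at 58.4 to 78.6 CPM, whereas Het 3 to 6 had Y-linked transcripts and at most 0.735 CPM of Xist. No WT library was Y-positive, so sex and genotype cannot be told apart for any gene that differs between the Y-positive Het libraries and the rest, and values are given below also for the Xist-positive libraries alone. WT 1 and WT 2 lay apart on the first principal component (49.7 and 47.1, against 2.15 to 16.4 in the other WT libraries and -29.1 to -14.7 in Het; 24.1 percent of the variance).

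The related genes differ enough in sequence for their reads to be told apart. Coding sequences in GENCODE M21 were 69.3 percent identical between Snai1 and Snai2, 83.6 percent between Twist1 and Twist2 and 66.2 percent between Zeb1 and Zeb2. The longest stretch shared without mismatch by any of their transcripts was 23, 23 and 35 bases, against reads of 75 nt. The closest resemblance is that of the Twist genes, shown here by the last 60 coding bases, stop codon included, with the 6 positions that differ in capitals. This end encodes the conserved C-terminal Twist box.
Twist1: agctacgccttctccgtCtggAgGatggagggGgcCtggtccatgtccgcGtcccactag
Twist2: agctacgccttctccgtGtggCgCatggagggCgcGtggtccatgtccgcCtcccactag

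Per kilobase of exon, Zeb1 was the most abundant of the 7 in WT and Snai2 stood beside it in Het. In WT the order of the levels was Zeb1 (7.41 ± 0.608 CPM per kb, SD, n = 5), Snai2 (3.40 ± 0.724), Prrx1 (2.05 ± 0.213), Twist1 (1.68 ± 0.414), Zeb2 (1.22 ± 0.0911), Snai1 (0.567 ± 0.215) and Twist2 (0.511 ± 0.131). Among neighbours in this order the ranges of Prrx1 and Twist1, of Twist1 and Zeb2 and of Snai1 and Twist2 overlapped, and the other neighbours did not. In Het, Snai2 was at 7.92 ± 1.88 and Zeb1 at 6.37 ± 0.534 CPM per kb (SD, n = 6), with overlapping ranges of 6.07 to 11.3 and 5.80 to 7.29. Twist1 (2.84 ± 0.839), Prrx1 (2.14 ± 0.237), Zeb2 (1.58 ± 0.165), Snai1 (0.879 ± 0.234) and Twist2 (0.388 ± 0.168) followed. The length is that of all annotated exons joined, 19942 bases for Zeb2, 11066 for Prrx1 and 10266 for Zeb1 but 1621 to 3174 for the other 4, so a gene with many unused exons is understated on this scale.

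**Figure D1:**
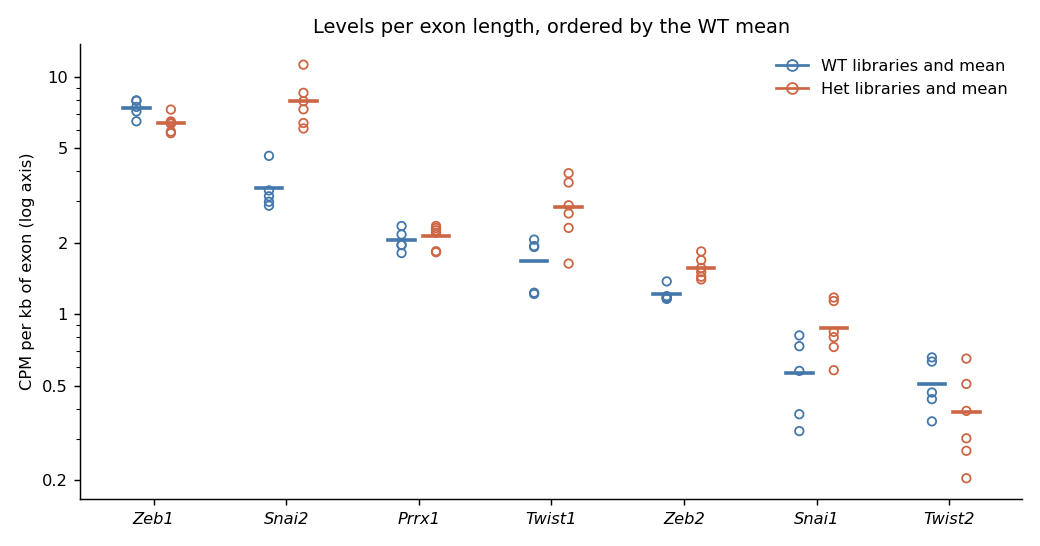
Level of each gene in CPM per kilobase of exon (vertical log axis) in the 5 WT libraries (blue circles) and 6 Het libraries (orange circles), with horizontal bars at the group means; genes are ordered by the WT mean. Snai2 moved from 3.40 in WT to 7.92 in Het, beside Zeb1 at 6.37.

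Het libraries were set against WT libraries to ask how transcript levels in the young arch differ when 1 Tgfbr2 allele carries the substitution. Of the 7 genes, 2 rose, Snai2 and Zeb2, and none fell by edgeR's quasi-likelihood test at an adjusted p of 0.05 over all tested genes. At that threshold 5.03 percent of all tested genes were called, 2.65 percent as higher and 2.38 percent as lower in Het. With a sex score as a covariate 1 of the 7 was called beside 0.834 percent of all genes, with the replicate number as a block 1 beside 2.23 percent, and in the Xist-positive libraries 0 beside 0.218 percent of 15600. At an unadjusted p under 0.05, 3 of the 7 were higher and 1 lower, beside 9.55 and 9.85 percent of all tested genes. DESeq2 called 2 of the 7 higher and 0 lower, beside 4.43 and 4.34 percent, and limma voom likewise 2 and 0, beside 2.85 and 2.43 percent. The median log2 fold change of the 7 was 0.37, beside -0.0046 over all tested genes. In bulk tissue fewer cells of a type and less RNA per cell cannot be told apart, and this holds for each difference below.

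Snai2 (ENSMUSG00000022676, at 14705852 to 14709385 on the plus strand of chromosome 16 of GRCm38), the Snail repressor of neural crest and mesenchyme also called Slug, rose 2.34-fold. Its level was 6.36, 6.03, 5.80, 9.41 and 6.73 CPM in WT 1 to 5. In Het the lowest library was at 12.3, the median 15.4 and the highest 22.8 CPM. All 6 Het libraries lay above every WT library, the highest of which was WT 4. Over all tested genes the groups were apart in this direction for 2.41 percent and in the other for 2.20 percent; of the 7 genes, 2 were apart upwards and none downwards. Mean levels were 6.86 ± 1.46 CPM (SD) over the 5 WT and 16.0 ± 3.81 CPM over the 6 Het libraries, with a log2 fold change of 1.22 ± 0.18 (SE, adjusted p = 0.00100 by edgeR's quasi-likelihood test).

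The rise of Snai2 was as large within the Xist-positive libraries. Of the 2 Het libraries there, Het 1 had 12.3 and Het 2 had 22.8 CPM, the lowest and the highest of the group, and the Y-positive Het libraries lay between them at 12.9 to 17.3. The log2 fold change was 1.36 ± 0.27 in the Xist-positive libraries (adjusted p = 0.0897 in edgeR, 5 WT against 2 Het) and 1.33 ± 0.24 with the sex score (adjusted p = 0.0226). It passed when any single library was left out, with adjusted p from 5.36e-04 to 0.00481.

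Snai1 (ENSMUSG00000042821, chromosome 2, 167538195 to 167542814, plus strand), the Snail gene required for gastrulation, was scarce in every library, with 7 to 26 counts. It was at 1.19, 0.938, 0.616, 1.32 and 0.523 CPM in WT 1 to 5, and in Het the lowest, median and highest values were 0.944, 1.33 and 1.91 CPM. The groups overlapped, with 3 of 6 Het libraries above every WT library. On the log2 scale the change was 0.63 ± 0.35 (adjusted p = 0.345 in edgeR), not detectable beyond the spread at this depth. Snai3, the remaining Snail gene, had at most 3 counts in any library.

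The Snail and Zeb proteins bind the E-box CAGGTG, read as CACCTG on the other strand, and the Snai1 promoter itself holds one. The 250 bases before its RefSeq start site on GRCm38.p6 (chr2:167537945-167538194, plus strand) are printed because Snail proteins are known to act on this gene, with the motif in capitals, starting at position -126 from the start site.
Snai1: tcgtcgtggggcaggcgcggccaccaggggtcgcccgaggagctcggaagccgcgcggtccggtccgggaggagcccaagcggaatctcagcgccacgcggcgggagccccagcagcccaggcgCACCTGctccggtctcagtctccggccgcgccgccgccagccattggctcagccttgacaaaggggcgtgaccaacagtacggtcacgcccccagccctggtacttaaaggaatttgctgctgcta
Among the 5 genes of the 7 matched in the RefSeq promoter table, this was the 1 with the motif on either strand. It is present in 17.2 percent of all 32851 promoters of that length in the table. A match describes these letters, not a bound site.

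Twist1 (ENSMUSG00000035799, chromosome 12, 33957671 to 33959829, plus strand), a factor of cranial neural crest and mesoderm, was higher on average in Het but did not pass. It was at 1.99, 2.01, 3.13, 3.16 and 3.36 CPM in WT 1 to 5. In Het the lowest, median and highest values were 2.67, 4.51 and 6.41 CPM. Of the 6 Het libraries 5 lay above every WT library, and the exception was Het 2. Its log2 fold change was 0.76 ± 0.26 (adjusted p = 0.103 in edgeR and 0.0526 in DESeq2).

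The highest Twist1 levels were those of the 4 Y-positive Het libraries, at 4.34 to 6.41 CPM. Of the Xist-positive Het libraries, Het 1 at 3.77 CPM was above every WT library and Het 2 at 2.67 CPM was within the WT range; Y-positive and Xist-positive Het libraries were not tested against each other. In the Xist-positive libraries the log2 fold change was 0.24 ± 0.36 (adjusted p = 0.897), and with the sex score 0.23 ± 0.31 (adjusted p = 0.854). It was 0.52 ± 0.28 without WT 1 and WT 2, the 2 WT libraries with the lowest Twist1.

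Twist2 (ENSMUSG00000007805, chromosome 1, 91801461 to 91848028, plus strand), the Twist gene of dermal and other mesenchymal cells, had only 9 to 30 counts. It was at 1.13, 2.01, 1.49, 1.40 and 2.09 CPM in WT 1 to 5, and the lowest, median and highest Het values were 0.649, 1.10 and 2.07 CPM. The groups overlapped, with 3 of 6 Het libraries below every WT library. The log2 fold change was -0.39 ± 0.34 (adjusted p = 0.591 in edgeR). Its exons share 1477 bases with Gm29100, an antisense gene that had 0 to 13 counts; without strand the reads of such a pair cannot be separated.

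Zeb2 (ENSMUSG00000026872, chromosome 2, 44983632 to 45117395, minus strand), also known as Sip1 for its binding to Smad proteins, rose by a small amount. Its level was 27.5, 23.5, 23.8, 23.2 and 23.2 CPM in WT 1 to 5. In Het the lowest, median and highest values were 28.0, 30.7 and 36.8 CPM. The groups did not overlap, though WT 1 at 27.5 came close to Het 1 at 28.0 CPM. This was a log2 fold change of 0.37 ± 0.10, or 1.30-fold (adjusted p = 0.0442 by edgeR's quasi-likelihood test).

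The call of Zeb2 lay close to the threshold. It held on removal of WT 1 or Het 1 but of no other single library (adjusted p up to 0.0989). In the Xist-positive libraries, where Het 1 and Het 2 had 28.0 and 28.8 CPM against 30.1 to 36.8 in the Y-positive ones, the log2 fold change was 0.23 ± 0.14 (adjusted p = 0.678), and with the sex score 0.22 ± 0.13 (adjusted p = 0.575). The antisense gene Zeb2os, which shares 653 exonic bases with Zeb2, had 3 to 16 counts per library against 311 to 623 for Zeb2.

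Zeb1 (ENSMUSG00000024238, chromosome 18, 5591860 to 5775467, plus strand), the Zeb gene best known for repressing epithelial genes, was lower on average in Het without passing. It was at 81.8, 66.8, 73.5, 76.8 and 81.5 CPM in WT 1 to 5, and the lowest, median and highest Het values were 59.5, 65.5 and 74.9 CPM. Of the 6 Het libraries 5 lay below every WT library, and Het 6 lay within the WT range. The log2 fold change was -0.22 ± 0.08 (unadjusted p = 0.0210, adjusted p = 0.161 in edgeR). It was -0.27 ± 0.13 in the Xist-positive libraries and -0.28 ± 0.12 with the sex score.

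Prrx1 (ENSMUSG00000026586, chromosome 1, 163245119 to 163313710, minus strand) was at the same level in both groups within the spread. It was at 26.1, 21.7, 20.1, 24.0 and 21.7 CPM in WT 1 to 5, and the lowest, median and highest Het values were 20.2, 24.7 and 26.1 CPM. The ranges nearly coincided, with a log2 fold change of 0.06 ± 0.11 (adjusted p = 0.837 in edgeR). Its relative Prrx2 had 3.75 CPM in WT against 3.65 CPM in Het (a change of -0.03 on the log2 scale, adjusted p = 0.976).

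**Figure D2:**
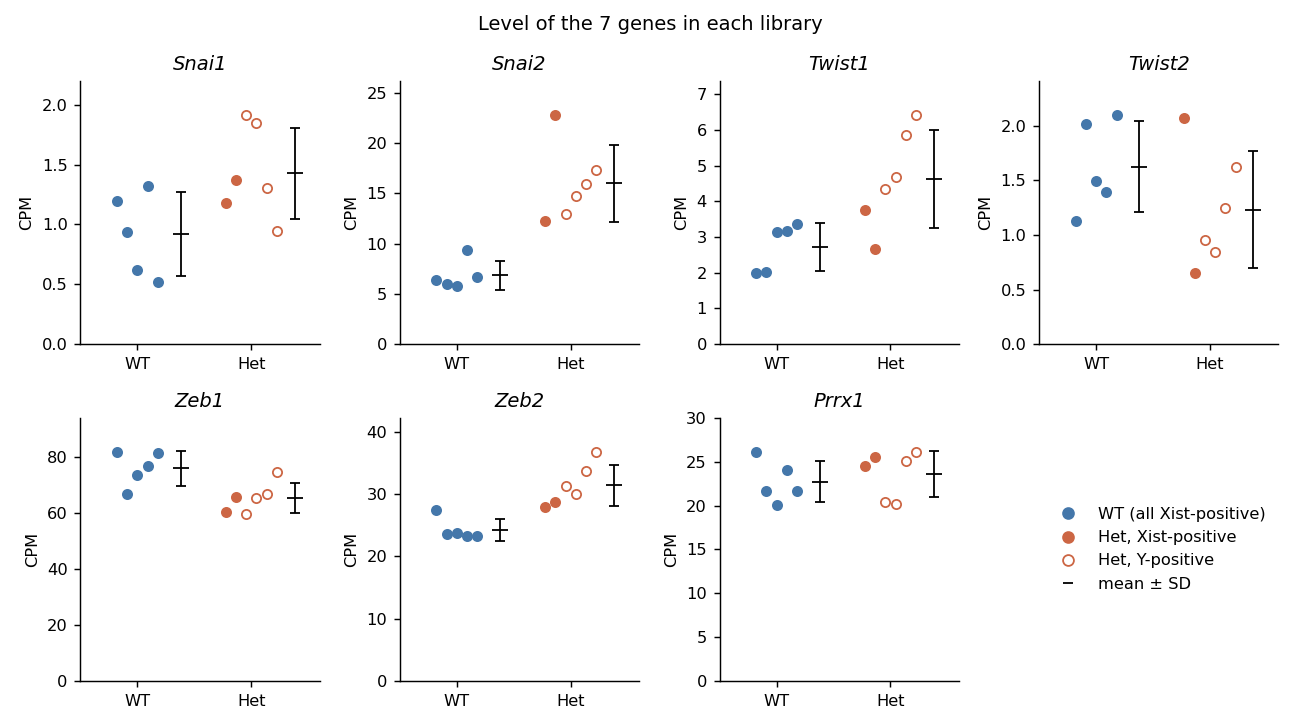
CPM of each gene in every library (vertical axes from 0), WT in blue, Xist-positive Het filled orange, Y-positive Het open orange, with mean ± SD beside each group. The groups are separate for Snai2 and Zeb2; for Twist1 and Zeb2 the Y-positive Het libraries lie above the Xist-positive ones.

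**Figure D3:**
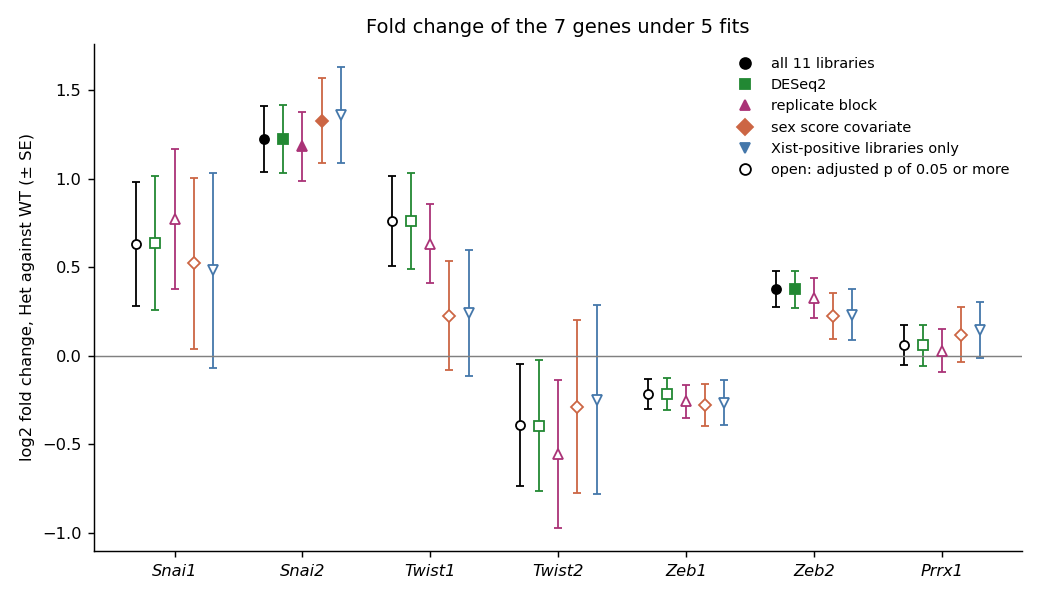
Log2 fold change of Het against WT with its SE for each gene in 5 fits; filled symbols passed an adjusted p of 0.05. Snai2 stays between 1.18 and 1.36, whereas Twist1 goes from 0.76 to 0.24 and Zeb2 from 0.37 to 0.23 when only Xist-positive libraries are used.

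Within each library, the balance of the paralogs was compared directly by the log2 ratio of their counts per kilobase, a measure that needs no scaling between libraries. The Zeb2/Zeb1 ratio was -2.60 ± 0.12 over the 5 WT libraries (SD; -2.77 to -2.46) and -2.02 ± 0.0977 over the 6 Het libraries (SD; -2.15 to -1.88). The groups did not overlap, and the ratio was higher in Het by 0.59 (exact two-sided permutation p = 0.00433, the smallest these splits can give, and 0.0130 adjusted over 3 ratios). Both Xist-positive Het libraries were also above all WT libraries, with a difference of 0.50 there (exact p = 0.0952, the smallest that 5 against 2 allows). The ratio shows an unequal change of Zeb2 and Zeb1 and not which of them moved.

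The Twist1/Twist2 ratio averaged 1.70 ± 0.456 (SD) over the 5 WT and 2.89 ± 0.552 over the 6 Het libraries, a difference of 1.19 (exact permutation p = 0.0130, adjusted p = 0.0195). Het 1, at 1.82, lay among the WT libraries (0.963 to 2.12), and the other Het libraries were at 2.93 to 3.38. In the Xist-positive libraries the difference was 0.68 (exact p = 0.286). The lower term of this ratio, Twist2, had only 9 to 30 counts. Het 2 reached a ratio of 2.94 with Twist1 within the WT range and 9 counts of Twist2. Neither gene passed alone in edgeR (adjusted p = 0.103 for Twist1 and 0.591 for Twist2), and the ratio does not show which of them moved. The Snai2/Snai1 ratio was 2.60 ± 0.475 in WT and 3.15 ± 0.563 in Het, a difference of 0.55 that did not pass (exact permutation p = 0.121).

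**Figure D4:**
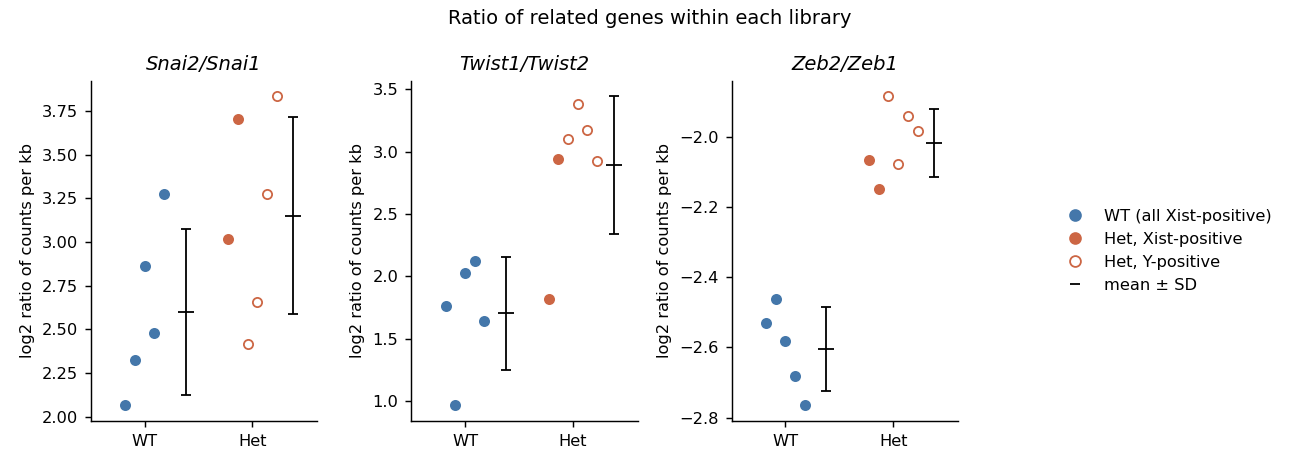
Log2 ratio of counts per kilobase of 2 related genes within each library (0.5 added to each count; axes do not start at 0), WT in blue, Xist-positive Het filled orange, Y-positive Het open, with mean ± SD. The Zeb2/Zeb1 ratio separates the groups, at -2.77 to -2.46 in WT and -2.15 to -1.88 in Het.

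Some markers of other cells or states also passed in edgeR, where 2.65 percent of all tested genes were higher and 2.38 percent lower in Het. Of 6 markers of cycling cells 5 rose, with a summed level of 96.1 to 208.1 CPM in WT and 185.3 to 268.8 CPM in Het, and Mki67 went from 9.46 ± 4.28 to 26.2 ± 6.74 CPM. Of 4 tested skeletal muscle markers of 7, 2 fell, with sums of 21.3 to 43.1 CPM in WT and 8.83 to 16.5 CPM in Het. Of 8 fibroblast markers none rose and 1 fell, with sums of 10571 to 19928 CPM in WT and 10466 to 16397 CPM in Het. Of 5 tested pericyte markers of 6, 2 rose, Notch3 and the proteoglycan gene Cspg4 (0.31 ± 0.08, adjusted p = 0.0330 in edgeR), with sums of 5280 to 9574 CPM in WT and 6112 to 9343 CPM in Het. Of 8 smooth muscle markers 1 fell, the calponin gene Cnn1 (-0.51, adjusted p = 0.0346), with sums of 33704 to 38249 CPM in WT and 30590 to 41655 CPM in Het. None of 6 macrophage markers (23.4 to 71.4 and 34.1 to 87.1 CPM) and none of 5 tested Schwann cell and glial markers of 6 (23.1 to 34.8 and 15.2 to 33.4 CPM) passed, and no marker of these 7 lists was at 0 in every library. The part of these cells in the levels of Snai2, Twist1 and Zeb2 was not tested.

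Among the dimer partners of Twist and their inhibitors, Id2 and Id3 passed the test. E proteins pair with Twist factors, and Id proteins, which lack a DNA-binding region, take E proteins away from them. Of the 7 genes of these families 2 rose, both of them Id genes, and none fell, beside 2.65 and 2.38 percent of all tested genes. Id2 had 36.2 ± 14.1 CPM in WT libraries and 94.6 ± 25.5 CPM in Het libraries (1.38 ± 0.26, adjusted p = 0.00781 in edgeR), with all Het libraries above all WT libraries, and Id3 from 309.7 ± 127.9 to 665.1 ± 189.0 CPM (1.10 ± 0.27, adjusted p = 0.0356). Id1 (1.03) and Id4 (0.96) did not pass (adjusted p = 0.141 and 0.0532). The E protein genes Tcf3, Tcf4 and Tcf12 had log2 fold changes of -0.54, -0.09 and -0.12 (adjusted p = 0.292, 0.656 and 0.588). With the sex score neither Id2 nor Id3 passed (adjusted p = 0.154 and 0.329), nor in the Xist-positive libraries (0.224 and 0.439). Id3 did not pass if WT 1, 2 or 5 or Het 2, 3, 4 or 6 was removed (adjusted p up to 0.105).

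Of 13 close relatives of the 7 genes, among them the Scratch, Hand and Alx genes, 4 had enough counts to be tested. Of the other 9, Scrt1 and Ferd3l were at 0 counts in every library, which allows up to the floor of 3 counts, and the highest count in any library was 15, of Alx4. Of the 4 tested, none passed in edgeR, DESeq2 or limma voom or at an unadjusted p under 0.05. Of all tested genes edgeR called 2.65 percent higher and 2.38 percent lower, DESeq2 4.43 and 4.34 percent, and limma voom 2.85 and 2.43 percent. At an unadjusted p under 0.05 the shares were 9.55 and 9.85 percent. With only 4 genes, none called is near those shares. The lowest p values were those of the tendon factor Scx (log2 fold change -0.38 ± 0.31, adjusted p = 0.569) and the craniofacial homeobox gene Alx1 (0.48 ± 0.39, adjusted p = 0.547).

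Among 17 tested of 24 other transcription factors of EMT and neural crest, 1 rose and 2 fell. Of all tested genes, 2.65 percent rose and 2.38 percent fell. Tcf21, a factor of epicardial and adventitial mesenchyme, had 6.56 ± 2.47 CPM in WT libraries and 13.3 ± 4.25 CPM in Het libraries (1.02 ± 0.26, adjusted p = 0.0318 in edgeR). Tfap2b, a neural crest factor needed for closure of the ductus arteriosus, went from 5.20 ± 2.96 to 2.05 ± 0.449 CPM (-1.34 ± 0.32, adjusted p = 0.0227). Sox9, the cartilage and neural crest factor, went from 6.56 ± 1.79 to 2.94 ± 1.30 CPM (-1.16 ± 0.29, adjusted p = 0.0270). These 3 calls rest on few libraries: leaving out 1 at a time left 0 to 1 of the list risen and 0 to 2 fallen, and none passed with the sex score or without WT 1 and WT 2. Of 4 tested cartilage markers of 7, 1 rose and 1 fell, Sox9 itself, and Matn1 was at 0 in every library. Their sums were 16.3 to 24.2 CPM in WT and 36.9 to 73.5 CPM in Het. The median log2 fold change of the 4 was -0.68, so the higher sums in Het do not stand for the list as a whole. The part of these markers was not tested.

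Genes for proteins that act with or on these factors were read beside all tested genes, of which edgeR called 2.65 percent higher and 2.38 percent lower. Of 21 co-repressors and chromatin partners, such as Ctbp1, Hdac1, Kdm1a and Ezh2, none passed in edgeR. At an unadjusted p under 0.05, 3 were higher and 2 lower, beside 9.55 and 9.85 percent of all tested genes. DESeq2 called 2 higher and 1 lower, beside 4.43 and 4.34 percent. The smallest p values belonged to the LIM proteins Wtip (0.78 ± 0.23, adjusted p = 0.0669; past the threshold in 7 of 25 alternatives, among them limma voom and edgeR without WT 1, adjusted p = 0.0487 and 0.0320) and Ajuba (0.65 ± 0.21, adjusted p = 0.0874), known as partners of Snail. Of 13 kinases, phosphatases and ubiquitin ligases that control the stability of these proteins, 1 fell: Fbxl5, an iron-regulated F-box protein known to target Snail, went from 52.0 ± 8.74 to 36.4 ± 4.84 CPM (-0.52 ± 0.12, adjusted p = 0.0243, and 0.477 with the sex score). It did not pass if WT 1, 2 or 3 or Het 4, 5 or 6 was removed (adjusted p up to 0.0736).

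The epithelial genes that Snail and Zeb proteins are known to repress were mostly at or near the floor. Of 30 listed, 14 had too few counts to be tested, among them Cdh1, the gene for E-cadherin, with 1 count in 1 of the 11 libraries, and Epcam, with at most 2 counts in any library. Of the 16 tested, 2 rose and 1 fell, beside 2.65 and 2.38 percent of all tested genes. Their median log2 fold change was -0.16. Lama5, the laminin alpha 5 chain, rose from 50.7 ± 4.99 to 95.6 ± 6.20 CPM (by 0.91 ± 0.09 on the log2 scale, adjusted p = 1.53e-05 in edgeR), and Cdh3, P-cadherin, from 52.2 ± 5.67 to 69.7 ± 11.1 CPM (0.42 ± 0.11, adjusted p = 0.0474). Krt18, a simple epithelial keratin, fell from 263.2 ± 41.9 to 111.4 ± 24.8 CPM (-1.24 ± 0.14, adjusted p = 1.27e-04). The other keratin genes of the list were scarce and did not pass. Krt8 had 0.917 CPM in WT and 0.894 CPM in Het (-0.02, adjusted p = 0.992 in edgeR). Krt19 had 3.83 and 3.00 CPM (-0.34, adjusted p = 0.722). The junction genes Dsp (0.01), Jup (-0.0037) and Tjp1 (0.16) had adjusted p of 0.975, 0.994 and 0.477.

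Lama5 and Krt18 passed also in the Xist-positive libraries (0.97 ± 0.13 and -1.15 ± 0.17, adjusted p = 0.0160 and 0.0237). The call of Cdh3 was lost with the sex score (adjusted p = 0.531), in limma voom, and on removal of WT 2, 3, 4 or 5 or Het 2, 4, 5 or 6 (adjusted p up to 0.120). Of 4 tested epithelium markers of 8, 1 fell, Krt18 itself, and Foxn1 was at 0 in every library. Their sums were 223.9 to 326.9 CPM in WT and 91.2 to 160.9 CPM in Het. These sums are nearly all Krt18, at a mean of 263.2 of 269.6 CPM in WT and 111.4 of 116.6 CPM in Het. They therefore add little to its own fall. The part of these markers in these results was not tested. Among 19 genes of the list in the promoter table, 12 had the motif CAGGTG or CACCTG within 250 bases before a start site, 63.2 percent, and 14 of their 25 promoters had it, 56.0 percent, beside the 17.2 percent of all promoters given above. The list was made of known Snail and Zeb targets, so a high share follows from its choice. The promoters of the 2 genes of the list with the smallest p are printed because they moved in opposite directions while both hold the motif (capitals), Lama5 at positions -246 and -186 from its start site (chr2:180225860-180226109, minus strand, GRCm38.p6) and Krt18 at -214 (chr15:102027966-102028215, plus strand).
Lama5: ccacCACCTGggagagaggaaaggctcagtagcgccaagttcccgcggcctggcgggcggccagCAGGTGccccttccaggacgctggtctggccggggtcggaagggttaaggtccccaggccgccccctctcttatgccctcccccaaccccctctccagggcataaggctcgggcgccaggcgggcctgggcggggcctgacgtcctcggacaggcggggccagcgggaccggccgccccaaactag
Krt18: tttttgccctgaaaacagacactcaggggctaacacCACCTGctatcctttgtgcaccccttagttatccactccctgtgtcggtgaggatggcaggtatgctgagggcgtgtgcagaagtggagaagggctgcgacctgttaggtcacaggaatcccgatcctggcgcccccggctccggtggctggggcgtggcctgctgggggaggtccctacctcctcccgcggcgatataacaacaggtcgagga

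Mesenchymal genes of the EMT programme were all expressed, with a median log2 fold change of 0.22. In edgeR 5 of 28 rose and none fell, beside 2.65 and 2.38 percent of all tested genes. Tnc, the matricellular protein tenascin C, rose from 53.3 ± 7.83 to 156.1 ± 32.4 CPM (by 1.55 ± 0.14 on the log2 scale, adjusted p = 1.53e-05 in edgeR), and Postn, periostin, from 647.1 ± 87.6 to 1004 ± 65.7 CPM (0.63 ± 0.09, adjusted p = 7.86e-04). The elastic fibre protein Fbln5 (0.40 ± 0.08, adjusted p = 0.00632), the collagen-binding Sparc (0.34 ± 0.08, adjusted p = 0.0269) and Cdh2, N-cadherin (0.78 ± 0.21, adjusted p = 0.0450), were the others. Vim (0.18), Fn1 (0.19) and Cdh11 (0.41) had adjusted p of 0.352, 0.218 and 0.0775, and Dnm3os, a Twist1-dependent noncoding RNA, had 0.05 (adjusted p = 0.904). On the lower side were Col3a1, a fibrillar collagen, with 7995 ± 2538 CPM in WT against 4919 ± 1508 CPM in Het (-0.70 ± 0.24, adjusted p = 0.117), Fap (-0.37 ± 0.13, adjusted p = 0.112) and Mmp2 (-0.20 ± 0.09, adjusted p = 0.241). At an unadjusted p under 0.05, 9 of the 28 were higher and 3 lower, beside 9.55 and 9.85 percent of all tested genes. DESeq2 called 7 higher and 1 lower, beside 4.43 and 4.34 percent. Leaving out 1 library at a time gave 3 to 5 that rose and 0 to 1 that fell. With the sex score 2 rose, Tnc and Postn, beside 0.834 percent of all tested genes called in either direction. In the Xist-positive libraries 1 rose, Tnc, beside 0.218 percent.

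Of 20 tested genes for TGF-beta, BMP and Notch signals that act on Snail, Twist and Zeb genes, 2 rose and 1 fell. Over all tested genes 2.65 percent rose and 2.38 percent fell. Notch3, a receptor of mural cells, had 10.8 ± 1.47 CPM in WT libraries and 19.6 ± 2.44 CPM in Het libraries (0.86 ± 0.13, adjusted p = 0.00138 in edgeR), and Bmp4 rose by 0.59 ± 0.12 on the log2 scale (adjusted p = 0.0110). Tgfbr1, the type I receptor, was lower by a log2 fold change of -0.35 ± 0.09 (adjusted p = 0.0375), which passed on removal of WT 4 but of no other single library. None of the 3 passed with the sex score (adjusted p = 0.0863, 0.169 and 0.278).

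**Figure D5:**
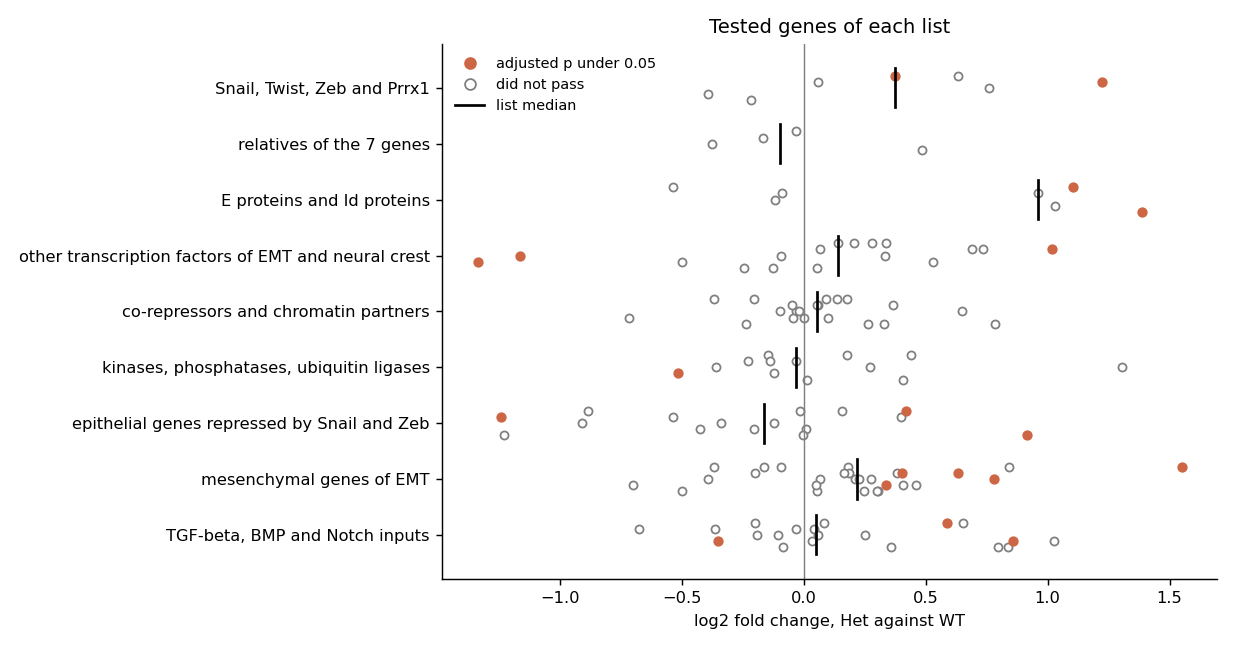
Log2 fold change of Het against WT (horizontal axis) of each tested gene in the 9 lists; filled orange points passed an adjusted p of 0.05, open points did not, and vertical bars are list medians. In the top line Snai2 at 1.22 and Zeb2 at 0.37 are filled; Krt18 at -1.24 and Lama5 at 0.91 are in the epithelial line.

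To show which genes varied most like each factor apart from genotype, group means were subtracted from the log2 CPM of the 11 libraries and 9921 protein-coding genes of at least 5 CPM were ranked by Pearson's r. These are the highest of many values over 11 libraries that share their depth and tissue pieces, and are given as a description. The split of the Het libraries into Xist-positive and Y-positive was not removed, and its part in the likeness was not tested. For Snai2 they were Rnaseh2a (r = 0.886), a subunit of ribonuclease H2, and Toe1 (0.884). For Twist1 they were Cage1 (0.933) and the netrin receptor gene Unc5c (0.928), which rose in Het (log2 fold change 0.44 ± 0.12, adjusted p = 0.0388). For Zeb2 they were Fbf1 (0.920) and Acbd3 (0.905), and for Zeb1 the deubiquitinase gene Usp14 (0.884) and Rabl2 (0.882). For Prrx1 they were Rictor (0.888), a subunit of the mTORC2 complex, and Smg1 (0.886), for Snai1 Zfand2b (0.927) and Purg (0.884), and for Twist2 Zfp637 (0.945) and Clmp (0.918).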

How the data were processed

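Per the labels' protocols, unstranded Nextera XT libraries were read as 75 nt single reads on 2 runs of a NextSeq 500. GRCm38, STAR 2.5.2a, limma, edgeR and DESeq2 appear in the submitters' processing notes without roles, and the sources used here give neither counter nor annotation. Deposited counts are whole numbers per gene. The authors' TMM-normalized CPM table holds a deposited signal, the count times 1 constant per library, and served for symbols and an alternative test.

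Symbols of the 7 genes were read from that table and matched by Ensembl ID in the counts and in GENCODE M21 (48349 of 48709 IDs matched). Genes were kept by filterByExpr (minimum count 10, minimum total 15), scaled by TMM and tested in all 11 libraries with edgeR 4.0.16 in R 4.3.3 (quasi-likelihood F test, robust) without covariates, with Benjamini-Hochberg adjustment over all 14757 genes and a threshold of 0.05. SE was taken as the absolute log2 fold change over the root of F. The test was checked on simulated counts, with the same dispersion for every gene and changes set only in better-counted genes. It recovered 32.8 percent of the genes changed 1.5-fold, 97 percent at 2-fold and 100 percent at 4-fold, with 8 false calls. Differences of about 1.5-fold, and those of scarce genes, can therefore be missed. The sex score sets Y-linked genes (Uty, Kdm5d, Eif2s3y, Ddx3y; mean log2 CPM) against Xist; Xist-positive libraries have at least 100 Xist counts. Paralog ratios used scipy 1.17.1, and coding sequences were aligned with Biopython 1.88.

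The 7 genes, the 8 lists around them, the 19 marker lists and the tests were chosen with earlier results of these data known. Named list genes are, by rule, up to the 3 smallest p per direction among those that passed, or the 2 smallest p where none did. Other list genes (Id1, Id4, the E proteins, Dsp, Jup, Tjp1, Krt8, Krt19, Cdh1, Epcam, Sparc, Cdh2, Vim, Fn1, Cdh11, Dnm3os, Col3a1, Fap, Mmp2, Spp1, Prrx2, Snai3, Scrt1, Ferd3l, Alx4) and the markers Cspg4, Cnn1 and Cdh5 were named after their values were seen. Nothing in the labels says how the mice relate beyond littermates. Alternatives were other scalings, filters and tools, limma 3.58.1 (trend, pseudocount 1 or 0.5) on that deposited signal, DESeq2 1.42.0, covariates, a replicate block and each library left out.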

Additional observations from a re-analysis of the deposited data

Results flagged for a closer look

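In 4 of 60 groups checked, 1 library lay apart from the others by more than Dixon's critical value, which chance gives in about 1 of 20 groups. Snai2 was at 9.41 CPM in WT 4, above 5.80 to 6.73 CPM in the other WT libraries. Zeb2 was at 27.5 CPM in WT 1, above 23.2 to 23.8 CPM. Tgfbr2 was at 48.8 CPM in WT 5, above 38.3 to 41.0 CPM. The log2 Twist1/Twist2 ratio was 1.82 in Het 1, below 2.93 to 3.38 in the other Het libraries. Leaving out WT 4 kept the call of Snai2 and ended that of Zeb2, leaving out WT 1 kept both, and leaving out Het 1 raised the difference in the Twist1/Twist2 ratio from 1.19 to 1.40.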

How the results depend on the processing

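The number of genes called among all tested, 742, was 1295 with DESeq2, 415 with the number in the column names (6 or 7, not explained in the labels) as a covariate, 432 without WT 1 and WT 2, 123 with the sex score, 34 in the Xist-positive libraries and 329 with a replicate block; leaving out 1 library gave 458 to 853. Of the 7 genes, 2 were called; this was 1 without a filter, with the column number, the sex score or the replicate block and without WT 1 and WT 2, 0 in the Xist-positive libraries, and 1 to 2 when 1 library was left out. Snai2 passed in 24 of 25 alternatives, with log2 fold changes of 1.10 to 1.36, and Zeb2 in 10, at 0.22 to 0.43. All 7 kept their direction in all 25. The exact tests of the ratios lose resolution with fewer libraries: the difference in Zeb2/Zeb1 was 0.50 in the Xist-positive libraries (adjusted p = 0.286), 0.66 without WT 1 and WT 2 (0.0714) and 0.58 with the replicate block (0.0938), and that in Twist1/Twist2 was 0.68, 0.96 and 1.18 (0.286, 0.107 and 0.0938). Leaving out 1 library kept both past the threshold, at 0.55 to 0.62 and 1.00 to 1.40. WT and Het libraries share replicate numbers, but same-numbered libraries did not deviate together (correlations of -0.21 to 0.06 over 5 numbers), so the block pairs numbers only. At this depth Snai1 and Twist2, with 7 to 30 counts, allow only large differences to be seen.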
